A study of Mus musculus with 35 samples.

Results

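The nuclei described here are GABA neurons of the mouse hippocampus that express reelin but little somatostatin. They were selected on their own counts: a barcode needed 1000 or more detected genes, at least 4 UMIs (unique molecular identifiers, each standing for 1 captured RNA molecule) of Gad1 and Gad2 together, at least 5 of Reln, at most 2 of Sst, at most 1 of Vip, at most 2 of Slc17a7 and at most 2 of Mog and Mag together. This rule took 1405 nuclei, which were 1.14% of the 122747 barcodes with 1000 or more genes (144991 barcodes were deposited) and 23.8% of the 5899 GABA nuclei that met the same gene minimum, GABA and Slc17a7, Mog and Mag limits. The levels of Gad1, Gad2, Reln, Sst, Vip, Slc17a7, Mog and Mag in these nuclei follow from the rule and are given as descriptions.

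The libraries are droplet-based single-nucleus RNA-seq of frozen hippocampus from C57BL/6 mice aged 9 months, in 4 genotypes. There were 3 WT libraries, 3 of PS19 mice, 4 of CLEAR mice and 4 of CLEAR_PS19 mice, which carry both alleles. PS19 mice express a mutant human tau transgene under the mouse Prnp promoter, a model of tau deposition. CLEAR mice carry, as far as the study's aim is known, a mutated CLEAR element, the binding site of the lysosomal regulator TFEB, in Atp6v1h, which encodes the H subunit of the vacuolar proton pump (V-ATPase). The last numbered library of each genotype was female and the others were male. The labels do not say whether each library is a separate animal, so p-values measure only the spread between these samples. Bulk RNA-seq libraries of WT and PS19 mice aged 4 and 9 months were used as well.

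Reelin is a large secreted glycoprotein. It binds the receptors Vldlr and Lrp8 on neighbouring neurons, and the adaptor Dab1 carries the signal on. In the adult hippocampus it is made mainly by GABA interneurons, among them neurogliaform cells and oriens-lacunosum moleculare (O-LM) cells, which also express Sst. Neurogliaform and Ivy cells release GABA diffusely and are known for Lamp5. Interneurons born in the medial ganglionic eminence (MGE) keep the transcription factor Lhx6, and those born in the caudal ganglionic eminence (CGE) are marked by Adarb2.

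The CLEAR motif is shown here because it is the kind of sequence that the mutation concerns. The RefSeq promoter table for GRCm38.p6, covering 250 bases before to 50 after each start site, held entries for 14 of the 19 V-ATPase genes listed. The palindrome TCACGTGA was searched on both strands. It stood in 0.974% of all 32851 promoters, and among the V-ATPase genes it stood in the promoters of Atp6v0d1, Atp6v0e and Atp6v1a. Atp6v1h was among the 5 genes without an entry, so its promoter was not searched. The windows below run 5′ to 3′ on the gene's strand with the motif in capitals, at chr8:105566050-105566079 (minus strand), chr17:26676387-26676416 (plus) and chr16:44139373-44139402 (minus).
Atp6v0d1: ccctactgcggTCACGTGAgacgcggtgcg
Atp6v0e: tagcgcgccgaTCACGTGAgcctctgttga
Atp6v1a: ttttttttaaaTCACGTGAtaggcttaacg
The motif began at position -4 from the start site in Atp6v0d1, at 2 in Atp6v0e and at -132 in Atp6v1a. The shorter E-box core CACGTG, which lies within TCACGTGA, was found in 7.15% of all promoters and in 1 further V-ATPase gene, Atp6v0b. A match of letters is a description and not a binding site. Atp6v1h itself lies at chr1:5070018-5162529 on the plus strand of mm10.

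The WT libraries gave 114, 89 and 104 Reln nuclei, those of PS19 mice 151, 117 and 99, the CLEAR libraries 89, 67, 94 and 103, and the CLEAR_PS19 libraries 100, 101, 97 and 80. Their summed UMIs came to 662534 to 2152390 per library, and their median UMI count per nucleus ranged from 7327 to 14359 between libraries. The whole libraries held 45090232 to 96045023 UMIs. Over all libraries 128 members stood at exactly 5 Reln UMIs, and 154 barcodes that met every other limit stood just below, at 4. Another 443 barcodes failed on Sst alone and 10 on Vip alone. A doublet caller marked 103 of the 1405 nuclei. 2657 barcodes were shared between pairs of libraries, of which 1 was a member in both. The libraries were grouped by their correlation in nuclei outside the selection, with sex-linked genes kept. The number of sets was fixed at 3 and is not a result. The first was made up of the male WT and PS19 libraries with CLEAR 3 and CLEAR_PS19 3, the second the 4 females, and the third CLEAR 1 and 2 and CLEAR_PS19 1 and 2, so the third set has no library without the CLEAR mutation.

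Markers that the rule did not use describe a mixed population led by neurogliaform and Ivy genes. Lamp5 had a UMI in 43.3% of the nuclei, Hapln1, a link protein of the extracellular matrix, in 48.0%, and Ndnf, a secreted neurotrophic factor, in 40.1%. In 14609 oligodendrocyte nuclei, taken as a measure of free RNA, the same genes had a UMI in 1.62%, 0.527% and 1.27%. Depth differed, with a median of 11285 UMIs in the Reln nuclei against 2864 in oligodendrocytes, so nuclei with 3000 or more UMIs were also thinned to 3000, 1399 Reln nuclei and up to 200 oligodendrocytes per library, 2642 in all. The shares were then 23.2%, 29.5% and 25.9% against 1.25%, 0.492% and 1.17%. Nos1, the neuronal nitric oxide synthase, had a UMI in 30.3% and Npy, a neuropeptide, in 28.9%. Both origins were present: Lhx6 had a UMI in 25.9% and Adarb2 in 69.0%, where oligodendrocytes gave 0.151% and 12%.

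Markers of Cajal-Retzius neurons that the rule did not use were rare. Trp73, which marks Cajal-Retzius neurons, had a UMI in 0.498% of the Reln nuclei. Lhx5 and the O-LM gene Chrna2 had none in 1405 nuclei, which allows a share of up to 0.214% with a UMI, counting error only. Chrna2 was the only one of the 5 O-LM and Sst genes listed without a UMI. Their summed level ran from 209 to 735 CPM per library, and the Sst-signal clusters below resemble Sst cells. Vip, Slc17a7 and Sst were held low by the rule, so their shares show only what it let through. Vip stood at 2.14% against 1.99% in oligodendrocytes, and Slc17a7, the vesicular glutamate transporter of excitatory neurons, at 9.82% against 11.47%. Sst had a UMI in 18% against 5.98%, and after thinning in 4.65% against 4.69%.

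Clustering of the 1405 nuclei gave 13 clusters, which fell into 5 blocks by their markers. The blocks were formed after the values were seen, so their differences are given without tests. Clusters 1, 2 and 5 carried Lamp5 in 77.0% to 80.0% of their nuclei and can be called neurogliaform-and-Ivy-like. They made up 677 nuclei, 48.2% of the total. Clusters 3, 4, 8 and 9 carried Adarb2 in every nucleus, 98929 UMIs in 366 nuclei, and Cnr1, the cannabinoid receptor, in 97.0% of the block, with Lamp5 in 6.83%. Clusters 6, 7, 10 and 12 held 280 nuclei, 19.9%, and kept a low Sst signal in spite of the limit of 2 UMIs.

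**Figure D1:**
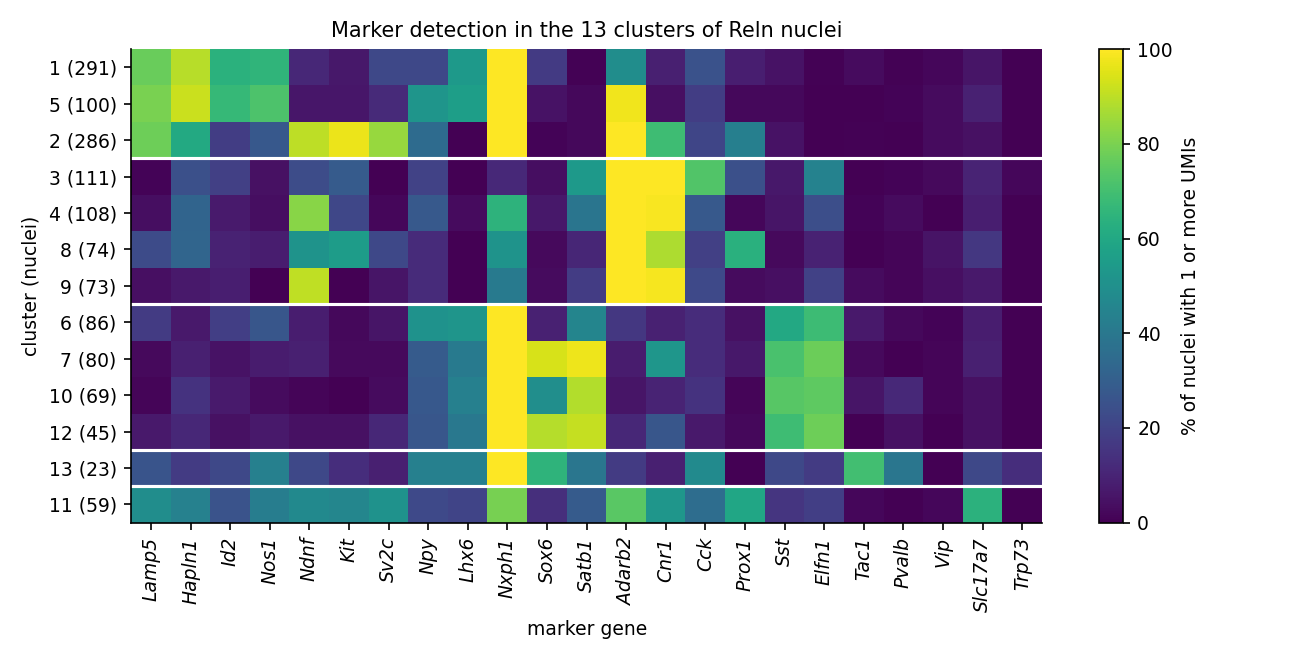
Share of nuclei with at least 1 UMI of each marker gene (columns) in the 13 clusters of Reln nuclei (rows, number of nuclei in brackets), from 0% (dark) to 100% (yellow). White lines separate the blocks, from top to bottom the Lamp5 clusters, the Adarb2 and Cnr1 clusters, the Sst-signal clusters, the Tac1 cluster and the Slc17a7-signal cluster. Lhx6 stood at 54.0% in cluster 1 and at 0% in cluster 2.

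Within the Lamp5 clusters, 2 marker patterns stood apart. Cluster 1, with 291 nuclei, carried Lhx6 in 54.0%, Nos1 in 65.3% and the transcriptional regulator Id2 in 63.9%, but Ndnf in 11% and Kit, a receptor tyrosine kinase, in 6.53%. Cluster 5, with 100 nuclei, was near cluster 1 in Lhx6 (56.0%) and Nos1 (72.0%), and its other markers are not given here. Cluster 2, with 286 nuclei, was the reverse: Ndnf stood in 89.9%, Kit in 97.2% and the synaptic vesicle protein Sv2c in 84.6%, with Nos1 in 27.6% and no UMI of Lhx6. Adarb2 was carried by every nucleus of cluster 2 and by 49.1% of cluster 1. Reelin was highest in cluster 2, with a median of 26 Reln UMIs per nucleus against 9 in cluster 1, although its median depth was lower, 7925 against 10155 UMIs.

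The Adarb2 and Cnr1 clusters, numbers 3, 4, 8 and 9, are described by markers that also took part in the clustering. Cluster 3 carried Cck, the precursor of cholecystokinin, in 73.0% of 111 nuclei, and the others in 18.9% to 27.8%. Clusters 4 and 9 carried Ndnf in 82.4% and 90.4%, cluster 8 in 51.4% and cluster 3 in 23.4%. Prox1, a transcription factor, stood in 63.5% of cluster 8, 24.3% of cluster 3, 1.85% of cluster 4 and 2.74% of cluster 9. Npas1, another transcription factor, stood in 97.3% of cluster 3 and in 34.2% of cluster 9. Htr3a, the ionotropic serotonin receptor, had a UMI in 27.0% of the block.

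The Sst-signal clusters resembled Sst cells in genes outside the rule. Sst itself had 280 UMIs in the 280 nuclei, with a UMI in 60.5% to 73.9% per cluster. Elfn1, a postsynaptic adhesion protein, was carried by 74.3% and Satb1, a transcription factor, by 78.2%, against 0.443% and 1.48% in the Lamp5 clusters. Cluster 11, with 59 nuclei, held Slc17a7 UMIs in 64.4%, against 5.76% to 21.7% in the other blocks, and stays unnamed. Camk2a, a kinase gene abundant in excitatory neurons, had UMIs in every nucleus of cluster 11 but also in 76.2% to 95.7% of the nuclei of the other blocks. Cluster 13, with 23 nuclei, carried Tac1, the substance P precursor, in 69.6% and Pvalb in 39.1%. Since 280 nuclei of Sst-like makeup and 59 with an Slc17a7 signal lie inside the selection, the edgeR genotype contrasts below were also run without clusters 6, 7, 10, 11 and 12, an alternative added after the clusters were seen. The shares of barcodes and the comparisons with other nuclei were not.

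The blocks were present in every genotype. Among the WT libraries the Lamp5 clusters took 45.8% ± 5.31 (SD, n = 3) of the Reln nuclei, against 48.3% ± 6.09 (n = 3) for PS19, 53.7% ± 10.7 (n = 4) for CLEAR and 47.0% ± 5.02 (n = 4) for CLEAR_PS19. They ranged from 40.4% in WT 1 to 68.7% in CLEAR 2. The Adarb2 and Cnr1 clusters took 26.2%, 22.5%, 25.2% and 28.1% on average. The Sst-signal clusters ranged from 8.96% in CLEAR 2 to 30.0% in CLEAR_PS19 4 and averaged 21.2% ± 6.19 for WT, 24.5% ± 4.04 for PS19, 15.3% ± 4.72 for CLEAR and 19.1% ± 8.87 for CLEAR_PS19. The ranges of the 4 genotypes overlapped in each of these 3 blocks.

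Abundance was compared first, as the share of all barcodes with 1000 or more genes and as the share of GABA barcodes. For WT, Reln nuclei made up 1.14%, 1.24% and 1.35% of barcodes, and for PS19 1.47%, 1.26% and 1.34%. For CLEAR they made up 1.09%, 0.822%, 1.25% and 1.22%, and for CLEAR_PS19 0.885%, 0.796%, 1.18% and 1.24%. The lowest, CLEAR_PS19 2, had a 95% Wilson interval of 0.656% to 0.966%, and the highest, PS19 1, of 1.26% to 1.72%, for counting error only. The means were 1.24% ± 0.104 (SD, n = 3), 1.36% ± 0.105 (n = 3), 1.10% ± 0.195 (n = 4) and 1.02% ± 0.216 (n = 4). PS19 overlapped with neither CLEAR nor CLEAR_PS19, and the other pairs of genotypes overlapped.

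**Figure D2:**
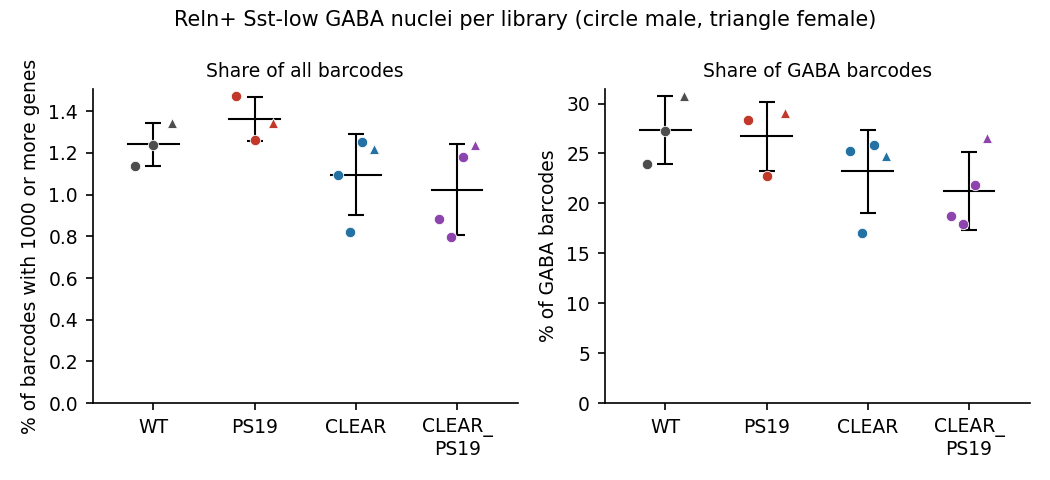
Reln nuclei as a percent of all barcodes with 1000 or more genes (left) and of GABA barcodes (right), 1 point per library (circles male, triangles female). Horizontal lines are genotype means and bars are SD. The libraries with the CLEAR mutation reach lower values, down to 0.796% of barcodes and 17% of GABA barcodes.

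With the tau transgene averaged over both backgrounds, the share of all barcodes differed by 0.0238 percentage points (exact permutation test, two-sided p = 0.784, adjusted over 2 contrasts and 2 denominators 0.784). With the CLEAR mutation it was 0.240 points lower (exact permutation p = 0.0294, adjusted 0.0686), which does not pass 0.05. The 4 libraries of the third set, all with the mutation, were the 4 lowest of the 14, and within sets the difference was -0.0903 points (exact permutation p = 0.194). Set membership and the mutation cannot be told apart in that set. Barcodes that failed on Sst alone numbered 41 and 52 in CLEAR 1 and 2, and 52 and 50 in CLEAR_PS19 1 and 2. The other libraries held 8 to 36 of them. How far the Sst limit contributed to the lower share was not tested. Without WT 1 or without CLEAR_PS19 4 the adjusted p of the mutation was 0.0495 and 0.0400, and after thinning to 3000 UMIs it was 0.433.

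Of the GABA barcodes, Reln nuclei made up 27.3% ± 3.41 (SD, n = 3) for WT, 26.7% ± 3.44 (n = 3) for PS19, 23.2% ± 4.16 (n = 4) for CLEAR and 21.3% ± 3.92 (n = 4) for CLEAR_PS19. The mutation's average difference was -4.78 points (exact permutation p = 0.0343, adjusted 0.0686) and within sets -3.01 points (exact permutation p = 0.139). Of the single contrasts, the lowest exact permutation p on either denominator was 0.0857, for CLEAR_PS19 against PS19, where 0.0286 is the smallest p the design allows. PS19 against WT, with 3 libraries each, cannot go below 0.100.

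Expression was compared with the UMIs of the Reln nuclei summed per library (edgeR quasi-likelihood test, adjusted over the 10990 genes tested, with sex as a covariate). Levels are given in CPM, the UMIs of a gene scaled to the TMM-adjusted total of these sums. Within clusters, in other nuclei and for summed levels of gene lists CPM was scaled to the plain total. Few genes were called with the tau transgene. Between PS19 and WT 4 genes, 0.0364% of those tested, were called at an adjusted p under 0.05, and between CLEAR_PS19 and CLEAR also 4, 0.0364%. They were the same genes: Prnp, Gm43049 and Gm32754 were higher and Unc5c was lower.

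Prnp encodes the cellular prion protein, and its promoter drives the tau transgene. The WT libraries stood at 28.5, 33.1 and 26.7 CPM and those of PS19 at 71.1, 83.5 and 64.2. The CLEAR libraries stood at 39.1, 46.9, 46.8 and 29.1 CPM and those of CLEAR_PS19 at 118, 107, 94.96 and 70.6. Every library with the transgene was above every library without it. The log2 difference was 1.31 (SE 0.168, adjusted p = 7.6e-04 in edgeR) between PS19 and WT and 1.27 (SE 0.143, adjusted p = 8.5e-05) between CLEAR_PS19 and CLEAR. Whether these UMIs came from the gene itself or from transgene sequence was not tested. Mapt, the mouse tau gene, ranged from 247 to 334 CPM over the 14 libraries, and its transgene difference was -0.01 (SE 0.0893). For Mapt too the source of the UMIs was not tested.

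The 250 bases upstream of the Prnp start site (chr2:131909678-131909927, plus strand, RefSeq, GRCm38.p6) are shown because this is the promoter the model borrows. The GC box, searched as GGGCGG on both strands (CCGCCC in reverse), is in capitals, and 32.7% of all promoter windows of this length hold it.
Prnp: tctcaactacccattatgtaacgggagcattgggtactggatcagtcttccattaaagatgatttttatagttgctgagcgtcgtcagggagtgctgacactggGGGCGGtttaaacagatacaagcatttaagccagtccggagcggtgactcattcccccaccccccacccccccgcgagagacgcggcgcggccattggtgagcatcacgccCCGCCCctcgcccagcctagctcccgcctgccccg

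The other 3 called genes lie within 1142.9 kb of chromosome 3 (mm10). Gm43049 (chr3:140692038-140760704, minus strand) and Gm32754 (chr3:140904998-140917459, minus strand) are long intergenic noncoding RNAs, and Unc5c (chr3:141465216-141834924, plus strand) encodes a netrin receptor of axon guidance. The interval holds 10 annotated genes, of which 4 passed the filter on low counts. The untested ones include Gm15688, which overlaps Unc5c on the opposite strand, and the fourth tested gene was Gm15689, also antisense within Unc5c, at a log2 difference of -0.89 (adjusted p = 0.82). The site where the PS19 transgene is inserted is not given in the sources used here.

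Gm43049 had no UMI in the 3 WT libraries and reached 113, 95.1 and 183 CPM in PS19. In CLEAR it stood at 0.908 CPM in 1 library and at 0 in 3, and in CLEAR_PS19 at 89.0, 110, 82.6 and 172 CPM. It was at least 169-fold higher in PS19 than in WT, against a limit of 3 UMIs over the WT libraries together. In CLEAR_PS19 it was 459 times the CLEAR level (463 UMIs against 1, exact counting interval 82.1 to 1.82e+04). Gm32754 behaved alike at lower counts, with 68 UMIs in PS19 and none in WT (at least 20.01-fold) and 67 against 1 in CLEAR_PS19 and CLEAR, and its single-background calls were lost without the sex covariate (adjusted p = 0.66 and 0.34), without WT 1 or 3 or PS19 1, and without CLEAR 4 or CLEAR_PS19 4. Without clusters 6, 7, 10, 11 and 12 the call between PS19 and WT was lost too (adjusted p = 0.191 in edgeR).

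Unc5c fell in both transgenic groups. It stood at 2914, 3160 and 2752 CPM in WT against 1348, 1366 and 1431 in PS19, and at 2061, 2584, 3054 and 2580 in CLEAR against 1275, 1064, 1080 and 1447 in CLEAR_PS19. The groups with and without the transgene did not overlap. It fell by 1.09 on the log2 scale in PS19 (SE 0.158, adjusted p = 0.0030 in edgeR; 0.063 without PS19 1) and by 1.08 in CLEAR_PS19 (SE 0.137, adjusted p = 4.1e-04).

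**Figure D3:**
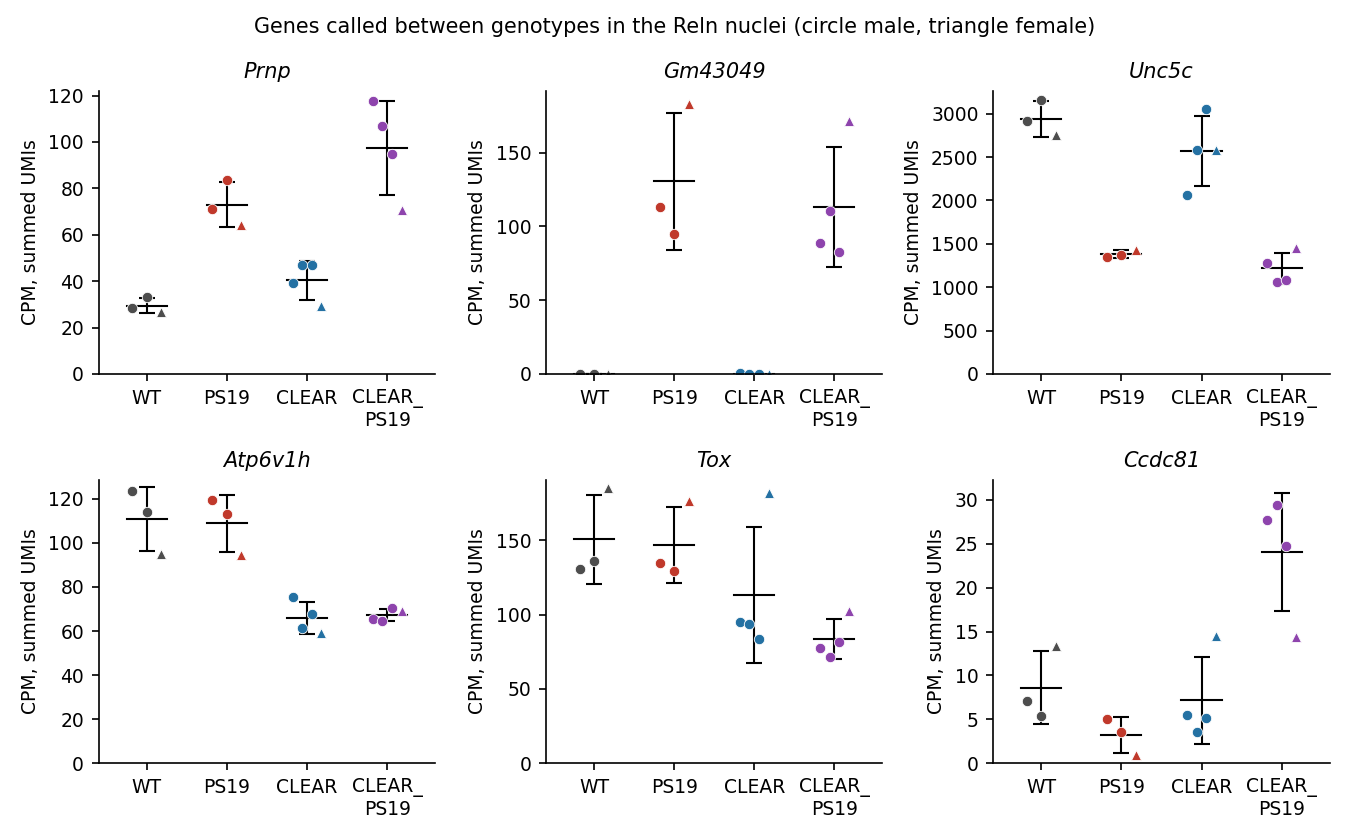
CPM of 6 called genes in the summed Reln nuclei, 1 point per library (circles male, triangles female), with genotype means and SD bars. Axes start at 0 and differ between panels. Prnp and Gm43049 are higher and Unc5c is lower in every library with the tau transgene, and Atp6v1h is lower in every library with the CLEAR mutation.

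Within the blocks of clusters, Unc5c was highest in the Lamp5 clusters. There it ranged from 4372 to 6056 CPM in WT and from 2335 to 2449 in PS19, and from 3968 to 5577 in CLEAR and 2081 to 2909 in CLEAR_PS19. In the Adarb2 and Cnr1 clusters the means were 1250, 576, 963 and 673 CPM in WT, PS19, CLEAR and CLEAR_PS19. There WT (911 to 1774) and PS19 (418 to 775) did not overlap, but CLEAR (756 to 1230) and CLEAR_PS19 (531 to 821) did. In the Sst-signal clusters WT and PS19 overlapped, at 813 to 1059 and 697 to 969 CPM, and so did CLEAR and CLEAR_PS19, at 483 to 1408 and 263 to 564 CPM, with means of 988 and 437. The block values are descriptions and their differences were not tested.

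**Figure D4:**
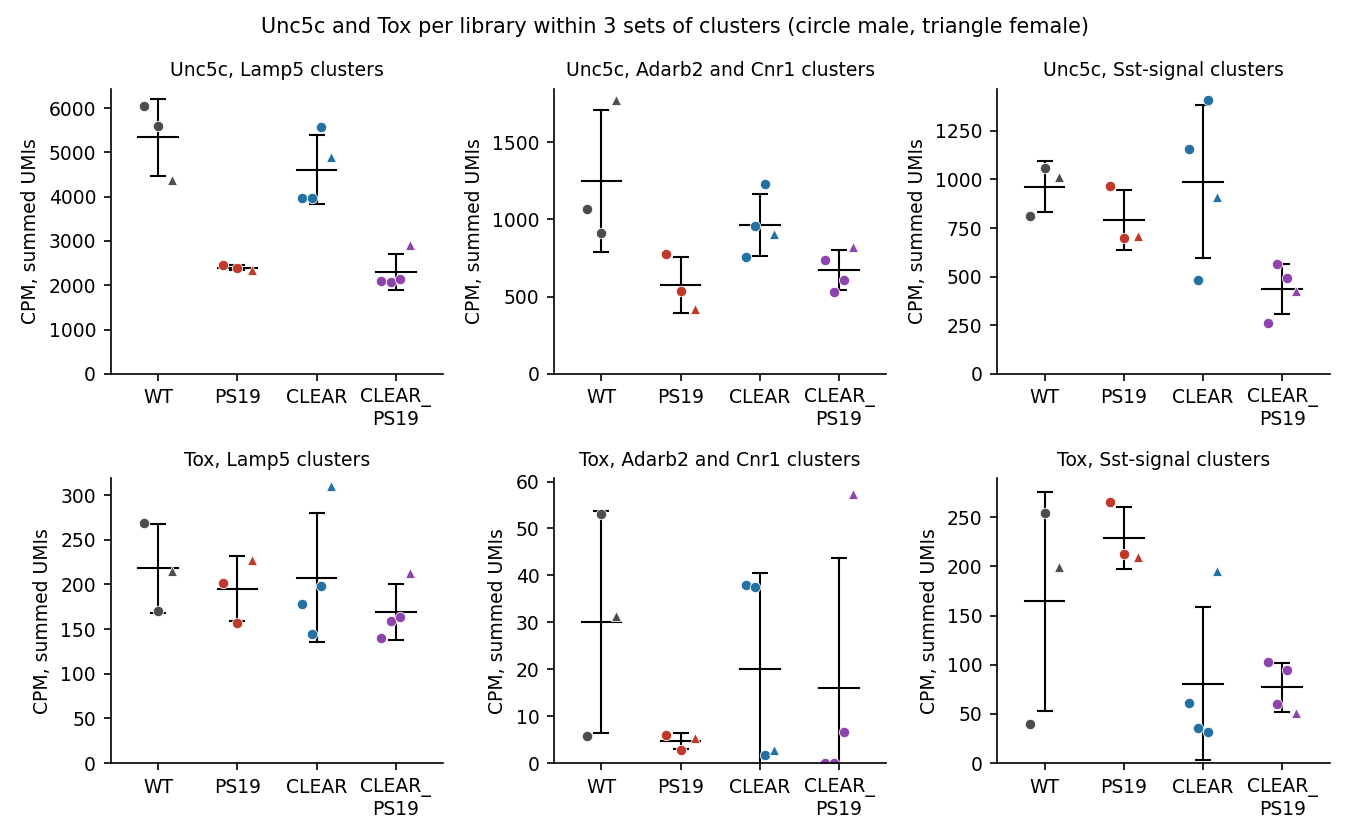
Unc5c (top) and Tox (bottom) in CPM per library within the Lamp5, the Adarb2 and Cnr1, and the Sst-signal clusters (circles male, triangles female, lines means, bars SD, drawn from 0). In the Lamp5 clusters the WT libraries lie at 4372 to 6056 CPM of Unc5c and the PS19 libraries at 2335 to 2449. Tox lies at 210 to 266 CPM in PS19 and at 51.4 to 103 in CLEAR_PS19 within the Sst-signal clusters, where cluster 12, the highest in Tox among PS19 nuclei, holds 23 PS19 nuclei and 5 of CLEAR_PS19.

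The change of these genes was set against other nuclei of the same libraries in exact permutation tests that were added after the calls were seen. P-values were adjusted over the 4 tests of Prnp and Atp6v1h. Unc5c and Tox entered because they were called in the Reln nuclei, so their values are given as a description with no test. Prnp rose by 1.30 (log2) with the transgene in the Reln nuclei, which was 0.260 more than in other GABA nuclei (exact permutation, adjusted p = 0.0294) and 0.402 more than in all other nuclei (exact permutation, adjusted p = 0.0229). These are ratios from unlike starting levels. On plain totals Prnp averaged 28.4 CPM in WT and 72.2 in PS19 in the Reln nuclei. The means were 32.8 and 67.1 in other GABA nuclei and 57.3 and 105 in all other nuclei. For CLEAR and CLEAR_PS19 they were 40.2 and 96.5 in the Reln nuclei, 39.6 and 85.1 in other GABA nuclei and 71.0 and 139 in all other nuclei. The transgene difference of Unc5c was -1.07 in the Reln nuclei, -0.82 in other GABA nuclei and -0.28 in all other nuclei. Gm43049 was at 0 to 0.242 CPM in other GABA nuclei of WT and at 89.3 to 109 in PS19.

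Between CLEAR and WT no gene was called in edgeR (0.0% of those tested). At an unadjusted p under 0.05 there were 476 genes, fewer than the 0.05 share of those tested that chance alone would give. DESeq2 also called 0. Between CLEAR_PS19 and PS19 4 genes were called (0.0364%), 1 higher and 3 lower. With the mutation averaged over both backgrounds 2 were called (0.0182%), Atp6v1h and Tox, both lower. These 2 contrasts had 776 and 926 genes at an unadjusted p under 0.05, more than that share. With the library set as a block they had 791 and 652. The interaction of transgene and mutation gave 0 called genes in edgeR (0.0%) and in DESeq2. It had 379 at an unadjusted p under 0.05, below that share as for CLEAR against WT. The averaged transgene contrast called 4 (0.0364%).

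Atp6v1h, which as far as the study's aim is known carries the mutated element, was lower in every library with the mutation. It stood at 124, 114 and 95.2 CPM in WT and 119, 113 and 94.3 in PS19, against 75.4, 61.3, 68.0 and 59.1 in CLEAR and 65.3, 64.4, 70.3 and 69.0 in CLEAR_PS19. The groups did not overlap. It fell by 0.74 on the log2 scale (SE 0.0906, adjusted p = 6.7e-04 in edgeR, 5.5e-07 to 0.014 over the alternatives). Between CLEAR and WT alone it fell short of a call (-0.76, adjusted p = 0.077 in edgeR), but was called with no filter (0.0054), without doublets (0.039) and at 8 or more Reln UMIs (0.047). Between CLEAR_PS19 and PS19 it was called (-0.73, adjusted p = 0.048 in edgeR). That call was lost in 11 of the 14 fits that leave out a library, with the library set as a block (0.0546), without the sex covariate (0.322), at 8 or more Reln UMIs (0.189) and without clusters 6, 7, 10, 11 and 12 (0.218). Its annotated span overlaps Rgs20 on the opposite strand.

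The decrease of Atp6v1h was near that of the other nuclei. It was 0.161 (log2) smaller than in all other nuclei (exact permutation, adjusted p = 0.0294), and 0.152 larger, in the direction of the decrease, than in other GABA nuclei (a difference of -0.152, exact permutation, adjusted p = 0.0963). Among other GABA nuclei it averaged 111 CPM in WT and 76.2 in CLEAR. In the Lamp5 clusters it ranged from 91.1 to 95.4 CPM in WT and from 43.1 to 71.6 in CLEAR, and in the Adarb2 and Cnr1 clusters from 103 to 130 and from 42.2 to 87.4. In the Sst-signal clusters these 2 ranges overlapped, at 101 to 137 in WT and 47.3 to 165 in CLEAR, where the highest value came from 14 UMIs in 6 nuclei of CLEAR 2. PS19 and CLEAR_PS19 did not overlap in the Sst-signal clusters, at 106 to 134 and 62.0 to 82.1 CPM.

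Of the 19 V-ATPase genes 18 were tested, and Atp6v1h was the only one called with the mutation averaged over backgrounds. 13 of the 18 had estimates above 0, with a median of 0.13 beside 0.0025 over all tested genes. The highest were Atp6v0c, of the proton-carrying ring, at 0.61 and Atp6v1f at 0.58, neither of which passed. The 3 genes with a TCACGTGA promoter stood at 0.03 (Atp6v0d1), -0.09 (Atp6v0e) and -0.00 (Atp6v1a). Of 31 tested lysosomal hydrolase and membrane protein genes 24 were above 0, with a median of 0.15, and none was called. Both lists moved with the library sets. The summed V-ATPase level was 1353 to 1463 CPM in the third set and 1052 to 1245 in the other libraries, and with the set as a block 12 of 18 V-ATPase genes (median 0.11) and 19 of 31 lysosomal genes (median 0.10) were above 0.

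Tox, an HMG-box transcription factor (chr4:6686353-6991557, minus strand), fell by 0.58 on the log2 scale with the mutation (SE 0.0963, adjusted p = 0.035 in edgeR). The WT libraries stood at 131, 136 and 185 CPM, those of PS19 at 135, 130 and 176, the CLEAR libraries at 95.4, 93.8, 83.3 and 182, and those of CLEAR_PS19 at 77.5, 71.7, 81.3 and 103. The CLEAR library at 182 CPM lay within the range of WT. The call was lost in 13 of the 14 fits that leave out a library, remaining only without CLEAR 4 (lowest adjusted p 0.0021), and without clusters 6, 7, 10, 11 and 12 the difference was -0.23 (adjusted p = 0.62). With the library set as a block it was not called (adjusted p = 0.140 in edgeR, and 0.0546 between CLEAR_PS19 and PS19). Nor was the averaged difference called without the sex covariate (0.606), without doublets (0.273) or at 8 or more Reln UMIs (0.352). In the Sst-signal clusters Tox averaged 229 CPM ± 31.6 (SD, n = 3) in PS19 and 77.1 ± 25.1 (n = 4) in CLEAR_PS19, and in the Lamp5 clusters 195 ± 36.1 and 169 ± 31.1. How the Sst-signal nuclei were spread over their clusters was not tested between genotypes. Pooled over libraries, cluster 12 held 23 of the 88 PS19 nuclei, with 181 Tox UMIs (675 CPM), and 5 of the 70 CLEAR_PS19 nuclei (113 CPM). Per library it held 8, 11 and 4 nuclei in PS19 and 2, 0, 1 and 2 in CLEAR_PS19. In WT it held 0, 2 and 5, and in CLEAR 1, 0, 1 and 8. Pooled Tox of PS19 against CLEAR_PS19 stood at 45.4 against 41.8 CPM in cluster 6, 143 against 64.2 in cluster 7 and 121 against 134 in cluster 10.

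The mutation's difference of Tox, averaged over backgrounds from the levels per library, was -0.63 in the Reln nuclei and 0.09 in other GABA nuclei. This is a description, since Tox was chosen for its call in the Reln nuclei, and it was not computed without the Sst-signal clusters. Other GABA nuclei averaged 114 CPM for WT, 114 for PS19, 127 for CLEAR and 112 for CLEAR_PS19. These means lie within each other's ranges. The makeup of the Reln nuclei moved with the result: the Sst-signal clusters averaged 24.5% in PS19 and 19.1% in CLEAR_PS19, and their part in it was not tested beyond the fit without those clusters.

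Ccdc81, a coiled-coil gene (chr7:89866148-89903629, minus strand), was higher in CLEAR_PS19 than in PS19 by 2.77 (SE 0.441, adjusted p = 0.036 in edgeR). It stood at 27.8, 29.4, 24.7 and 14.4 CPM in CLEAR_PS19 against 5.05, 3.6 and 0.943 in PS19, 7.12, 5.39 and 13.3 in WT and 5.45, 3.61, 5.11 and 14.5 in CLEAR. The female libraries of CLEAR and CLEAR_PS19 stood at almost the same level. The call was lost in 7 of the 14 fits that leave out a library: those without any 1 of the 3 PS19 libraries, without CLEAR 1, and without CLEAR_PS19 1, 2 or 3. It was also lost without the sex covariate (adjusted p = 0.104 in edgeR) and at 8 or more Reln UMIs (0.0675). Other nuclei of the same libraries differed the same way, at 24.0 CPM ± 8.19 (SD, n = 4) in CLEAR_PS19 against 6.56 ± 0.794 (n = 3) in PS19 among other GABA nuclei, and at 15.1 ± 5.70 against 3.63 ± 0.882 among all other nuclei.

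6330576A10Rik, a long intergenic noncoding RNA (chr14:100459423-100479525, plus strand), was lower in CLEAR_PS19 than in PS19 by 1.20 on the log2 scale (a difference of -1.20, adjusted p = 0.048 in edgeR). PS19 stood at 55.5, 49.7 and 59.4 CPM and CLEAR_PS19 at 21.2, 23.9, 25.4 and 20.9, with no overlap. WT stood at 19.4, 38.5 and 39.1. The call was lost in 11 of the 14 fits that leave out a library and with the library set as a block (adjusted p = 0.112 in edgeR). It was also lost without the sex covariate (0.253), without doublets (0.0813) and at 8 or more Reln UMIs (0.249). Without clusters 6, 7, 10, 11 and 12 the difference turned to 0.0534. In the Sst-signal clusters it stood at 116 to 156 CPM in PS19 and at 19.2 to 35.6 in CLEAR_PS19, and in the Lamp5 clusters at 3.64 to 14 and 0 to 1.81.

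The level of Reln follows from the rule and is given with no test. It ranged from 1312 to 1791 CPM for WT, 1462 to 1629 for PS19, 1317 to 1704 for CLEAR and 1130 to 1761 for CLEAR_PS19, all overlapping. Of the other Reelin pathway genes listed, 20 of 23 were tested and 0 were called with the transgene or with the mutation in edgeR. With the transgene 8 of the 20 estimates were above 0, with a median of -0.03, and with the mutation also 8, with a median of -0.03. The receptors Vldlr and Lrp8 stood at -0.10 and -0.13 with the transgene and at -0.04 and 0.00 with the mutation, and Dab1 at 0.00 and -0.09. Since the nuclei were selected on Reln, lower reelin in a genotype would show in part as fewer members.

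GABA synthesis, release and uptake genes were not called either. All 16 outside the rule were tested, and 5 were above 0 with the transgene and 10 with the mutation, with medians of -0.04 and 0.05. Of 11 tested neuropeptide and secreted signal genes other than Sst 9 were above 0 with the mutation. Their median was 0.35 beside 0.0025 over all tested genes, and the highest were the chemokine Cxcl14 at 0.92 and Npy at 0.76. With the library set as a block also 9 were above 0, with a median of 0.21. No gene of this list was called in either fit. Of 8 tested activity-regulated genes 2 were above 0 with the transgene, with Egr1 at -1.12 and Fos at -0.76, and none was called.

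Other lists also leaned one way with the mutation and moved with the library sets. Of the 24 nuclear genes of oxidative phosphorylation 22 were above 0, with a median of 0.29. Their summed level was 965 to 1120 CPM in the 4 libraries of the third set and 679 to 789 in the other 10, and with the set as a block 15 of 24 were above 0, with a median of 0.05. Heat shock and unfolded protein response genes had 13 of 14 above 0 with a median of 0.39, and 13 with 0.24 under the block. Glutamate receptors went from 1 of 18 above 0 to 10, and voltage-gated channels from 4 of 23 to 13. No gene of these 4 lists was called in either fit, and the set's part in the leanings was not tested further.

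The Reln nuclei were then compared with the 477 Sst nuclei of the same libraries, which met the same base rule with Sst at 5 or more and Vip at most 1. This compares them with another reelin-bearing kind, since 283 of the Sst nuclei also had 5 or more Reln UMIs. Of 8851 genes tested 2066 were called (23.3%; edgeR quasi-likelihood test with the library as a block), 1022 higher (11.5%) and 1044 lower (11.8%) in the Reln nuclei. Genes of the rule were left out. After thinning both kinds to 3000 UMIs 951 were called. Sst nuclei ranged from 2 per library in CLEAR_PS19 4 to 92 in CLEAR_PS19 1. The 4 libraries of the third set held 40 to 92 of them each and the others 2 to 38.

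The neurogliaform and Ivy genes set the Reln nuclei apart. Lamp5 averaged 94.8 CPM in the Reln nuclei against 1.89 in Sst nuclei (log2 difference 5.68, SE 0.200, adjusted p = 1.7e-19 in edgeR) and was higher in 14 of 14 libraries. Hapln1 was higher by 4.02, Ndnf by 4.12, Kit by 4.65, Id2 by 4.44, Sv2c by 3.18 and Nos1 by 1.32. Npy went the other way, at 47.9 CPM against 89.4 (-1.07, adjusted p = 7.2e-08 in edgeR). Of the CGE markers Adarb2 averaged 7192 CPM against 271 (6.56), Cnr1 330 against 66.5 (2.51) and Prox1 34.2 against 6.85 (2.39), while Npas1 and Nr2f2 did not pass. All 5 MGE markers were lower, from -0.24 for Maf to -2.19 for Sox6. Lhx6 was lower by 0.58 on the log2 scale (a difference of -0.58), and Elfn1 stood at -1.87.

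**Figure D5:**
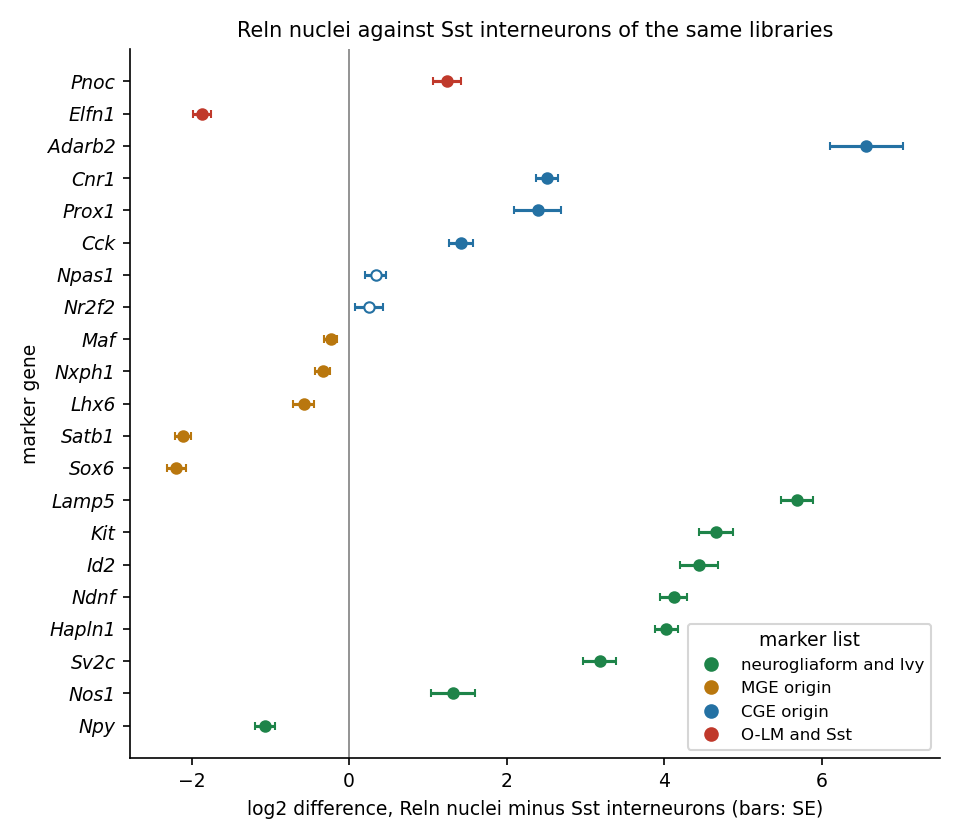
Log2 difference of interneuron marker genes between the Reln nuclei and Sst interneurons of the same 14 libraries (points, bars SE), coloured by marker list. Filled points passed an adjusted p of 0.05 in edgeR and open points (Npas1, Nr2f2) did not. Most neurogliaform and Ivy markers lie right of 0, with Npy at -1.07, and the MGE markers lie left of 0.

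Among the genes of lowest p with 50 or more CPM in the higher kind, those higher in the Reln nuclei were Pde11a (a cyclic nucleotide phosphodiesterase; 195 against 2.64 CPM), Frem1 (an extracellular matrix protein; 81.9 against 0.302), Kcnn2 (a calcium-activated potassium channel; 727 against 111), Egfr (a growth factor receptor; 223 against 3.03) and Hcrtr2 (an orexin receptor; 154 against 5.65). Cacna2d1, an auxiliary calcium channel subunit, averaged 1252 against 57.3 CPM (log2 difference 4.36). Mpdz, a scaffold protein, and Nfib, a transcription factor, completed the list with Lamp5 and Hapln1. Those lower were Pde1c, another phosphodiesterase (40.8 against 189 CPM), Trhde, an enzyme that degrades thyrotropin-releasing hormone (209 against 808), its antisense partner 4930473D10Rik, Tmcc3, Satb1, Grm7, Kctd8 (an auxiliary subunit of GABA-B receptors), Lypd6b, Sox6 and Trpc6, a cation channel (150 against 576). Droplet counts cannot fully separate overlapping genes such as Trhde and its partner.

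Receptors and channels split between the kinds. Of the 18 glutamate receptor genes 11 were lower and 4 higher in the Reln nuclei, beside 11.8% and 11.5% of all genes, with a median of -0.43 beside 0.01 over all. Grm7 stood at 542 against 1811 CPM, Grik3 at 65.9 against 229, Gria3 at 493 against 1271 and Grin3a at 322 against 714, while Grin2a, an NMDA receptor subunit, was higher at 2265 against 1333. Of the 23 voltage-gated channel genes 10 were lower and 4 higher. Cacna2d3 stood at 1008 against 2142 CPM and Kcnc2 at 1488 against 2339. These are counts over lists and no test of the lists was made.

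GABA genes went only upward among those called: 6 of 15 tested were higher and 0 lower, beside 11.5% and 11.8% of all genes. They included the receptor subunits Gabra5 (62.2 against 19.3 CPM), Gabbr2 (434 against 265) and Gabrb1 (630 against 495). In the Reelin pathway 4 of 18 tested genes were higher and 2 lower, beside the same shares of all genes. Dab1, the intracellular adaptor of the pathway, averaged 2419 CPM against 595 (2.05, adjusted p = 1.6e-16 in edgeR), and the receptor Vldlr 44.9 against 24.7 (0.80), whereas the other receptor, Lrp8, was lower at 75.8 against 93.9 (-0.44). Of 17 V-ATPase genes tested 1 was called, beside 23.3% of all genes. It was Atp6v1h, at 88.1 against 107 CPM (-0.32, adjusted p = 9.9e-04 in edgeR).

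Against the 249 Vip nuclei 1536 of 6838 genes were called (22.5%; edgeR). Lamp5 was higher by 3.67, Hapln1 by 4.25, Ndnf by 4.12 and Lhx6 by 7.57. Adarb2, which Vip cells also express, was lower by 1.34 on the log2 scale (a difference of -1.34), and Prox1 stood at -2.97. Nos1 did not pass (0.10, adjusted p = 0.75).

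Bulk RNA-seq of whole hippocampus gave WT and PS19 at 4 months (6 and 6 libraries) and 9 months (5 and 4), with 9630430 to 17182605 counts per library. In bulk tissue, fewer cells of a type and less RNA per cell cannot be told apart. At 9 months 2060 of 16133 genes were called (12.8%; edgeR) and at 4 months 3 (0.0186%). With a library left out the count at 9 months was 1185 to 2110, lowest without PS19 5 of that age. Prnp rose from 922 to 2125 CPM at 9 months (log2 difference 1.21) and by 1.22 at 4 months, beside 1.31 in the Reln nuclei. Mapt, not called in the Reln nuclei, rose by 0.47 at 9 months and by 0.60 at 4 months in bulk. Whether bulk reads of Prnp and Mapt came from the mouse genes or from transgene sequence was not tested. The bulk rise of Mapt is therefore not a measure of mouse tau alone. All other nuclei of the single-nucleus libraries averaged 457 CPM of Mapt for PS19 against 349 for WT. For CLEAR_PS19 they averaged 376 against 362 for CLEAR, with overlapping ranges.

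The chromosome 3 genes were less clear in tissue. Unc5c stood at 86.1 CPM ± 8.80 (SD, n = 5) in WT and 68.4 ± 8.26 (n = 4) in PS19 at 9 months (-0.33, adjusted p = 0.055 in edgeR, 0.035 in DESeq2) and at -0.21 at 4 months. Without the 9 month library WT 5 the difference at 9 months was -0.26 (adjusted p = 0.167 in edgeR). Over all edgeR fits that leave out a library its adjusted p ran from 0.042 to 0.187. Gm43049 had 0 reads in WT and 2 in PS19 at 9 months, and 0 and 3 at 4 months, too few to be tested. Gm32754 had 2 and 18 reads at 9 months and 0 and 40 at 4 months.

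Reln itself stood at 86.1 CPM ± 10.9 (n = 5) in WT and 78.3 ± 2.32 (n = 4) in PS19 at 9 months, and neither Reln, Gad1 nor Gad2 was called at either age in edgeR. Lamp5 and Ndnf were not called. At 9 months Sv2c fell by 0.98 on the log2 scale (adjusted p = 0.012 in edgeR), with WT 3 at 149 CPM, and by 0.54 without that library (adjusted p = 0.0189). Nos1 fell by 0.28 (adjusted p = 0.028), a call lost without WT 3 (0.076) or without PS19 1, 4 or 5 (0.060, 0.090 and 0.085). Hapln1 stood at 0.27 (adjusted p = 0.0502 in edgeR), and its call changed in 8 of 21 fits that leave out a library. None of these was called at 4 months, and none was called between genotypes in the Reln nuclei.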

How the data were processed

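The members, lists and tests were chosen with earlier results of these data known. The deposited single-nucleus counts are UMI counts per gene and barcode (Cell Ranger 5.0.1 per the file headers; Cell Ranger, Seurat and mm10 per the submitters' processing notes). The deposited bulk counts are whole reads per gene, unstranded (featureCounts 2.0.0 per the file headers). PS19 replicate 2 at 9 months was not used here.

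Groups came from the sample labels. Counts of members were summed per library and tested with edgeR 4.0.16 (R 4.3.3) quasi-likelihood fits over all 4 genotypes with sex, TMM and filterByExpr, at a Benjamini-Hochberg threshold of 0.05. Comparisons with Sst nuclei (Sst 5 or more) and Vip nuclei (Vip 3 or more, Sst at most 2) took the library as a block. The bulk fit and the class differences were added after the data were seen. Shares were compared by exact two-sided permutation tests within the other factor. Clusters came from scanpy 1.11.5 and leidenalg 0.10.2. Scrublet doublets were kept in the main analysis and left out in an alternative. Deviations from genotype means correlated over 0.1 in every same-numbered pair of WT with PS19 (0.21 to 0.41) and of CLEAR with CLEAR_PS19 (0.14 to 0.39), so replicate numbers were taken to pair libraries there. The highest of each, 0.41 and 0.39, were the pairs of female libraries. Differently numbered pairs ran from -0.28 to 0.11 for WT with PS19 and from -0.31 to 0.31 for CLEAR with CLEAR_PS19. CLEAR 2 with CLEAR_PS19 1 (0.31) was above the pairs numbered 1 (0.14) and 2 (0.19), so the pairing there is not clear. Scripts were tested on simulated data.

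Genes named are, for each genotype contrast, the 10 called of lowest p in each direction (5 where none was called), with Atp6v1h, Prnp, Mapt, Reln, Gad1, Gad2 and called list members. Against Sst nuclei they are the 10 of lowest p each way at 50 or more CPM, and the marker lists. Genes of the X inactivation centre and the Y chromosome were left out. Alternatives were DESeq2 1.42.0, no filter, no sex term, blocks, doublets, a Reln minimum of 8, thinning, clusters and libraries left out. A few genes that these rules take are not reported here.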

Additional observations from a re-analysis of the deposited data

Results flagged for a closer look

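Of 112 groups of 4 to 10 samples 16 had a sample far from the others, where chance flags about 1 in 20. Among the shares, CLEAR 2 had 17% of GABA barcodes. In the summed Reln nuclei, CLEAR 4 stood apart for Tox (182 CPM) and Ccdc81 (14.5), CLEAR 1 for Gm43049 (0.908) and Ano2 (23.6), CLEAR 3 for Gm32754 (0.731) and Asna1 (16.1), and CLEAR_PS19 4 for 9630002D21Rik (4.81). The Gm43049 and Gm32754 values were 1 UMI each beside 0 in the other CLEAR libraries, where any single UMI is flagged. In bulk tissue at 9 months, WT 3 stood apart for Sv2c (149 CPM), Nos1 (161), Npy (54.8) and Car4 (20.9), WT 5 for Unc5c (101), PS19 5 for Reln (81.7) and Npy (44.5), and PS19 4 for Ndnf (39.6).

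In 3 of 4 exact permutation tests of Reln nuclei against other nuclei of the same libraries the log2 differences differed at an adjusted p under 0.05. They were Prnp with the transgene (0.260 against other GABA nuclei and 0.402 against all other nuclei) and Atp6v1h with the mutation (0.161 against all other nuclei). The comparisons were not run without the Sst-signal clusters, and their causes were not tested.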

How the results depend on the processing

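The tau calls were the steadier ones: 4 genes averaged over backgrounds in every fit that leaves out a library, 2 to 5 for PS19 against WT (2 without PS19 1) and 4 to 6 for CLEAR_PS19 against CLEAR. The mutation contrasts moved more: 1 to 4 averaged, 0 to 1 for CLEAR against WT, 0 to 9 for CLEAR_PS19 against PS19 (0 without PS19 1, CLEAR 1, CLEAR_PS19 1 or CLEAR_PS19 2; 9 without CLEAR_PS19 4) and 0 to 1 for the interaction. With no filter on low counts the calls were 38 (PS19 against WT), 29 (CLEAR_PS19 against CLEAR), 28 (CLEAR against WT), 67 (CLEAR_PS19 against PS19), 31 (tau averaged), 100 (mutation averaged) and 34 (interaction). For CLEAR against WT, CLEAR_PS19 against PS19 and the mutation averaged they were 1, 2 and 1 without doublets and 1, 0 and 1 with Reln at 8 or more. For the last 2 they were 0 and 1 without sex and 1 and 1 without clusters 6, 7, 10, 11 and 12, and DESeq2 called 10 for CLEAR_PS19 against PS19. The causes were not tested.

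With the replicate block the tau contrasts, whose numbers were taken to pair the libraries, gave 4 (PS19 against WT), 6 (CLEAR_PS19 against CLEAR) and 4 (averaged) genes. Prnp, Gm43049, Gm32754 and Unc5c were called in each. That fit used the same replicate term in all 4 genotypes, so it also joined same-numbered libraries across the mutation. Across the mutation the numbers did not pair the libraries (some same-numbered pairs correlated below 0), and with the replicate block 101 genes were called for CLEAR against WT, 172 for CLEAR_PS19 against PS19, 495 for the mutation averaged and 1 for the interaction. With the library set as a block Tox, 6330576A10Rik and Atp6v1h lost their calls between CLEAR_PS19 and PS19 (6 genes called, 4 higher and 2 lower, against 1 higher and 3 lower), and Tox its averaged call (2 called, 1 higher and 1 lower, against 2 lower).

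The tau difference in share of barcodes was -0.0218 to 0.0618 points with a library left out and -0.00851 with Reln at 8 or more. For the mutation it was -0.276 to -0.195, and of GABA barcodes -2.31 to -0.286 (tau) and -5.76 to -3.74 (mutation). Calls against Sst nuclei were 1896 to 2147 with a library left out and 951 after thinning. For 6330576A10Rik the difference between CLEAR_PS19 and PS19 was 0.0534 without clusters 6, 7, 10, 11 and 12. The fit without those clusters and the alternatives of the bulk fit were chosen after seeing the data. About 100 nuclei per library limit low genes.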
